A study of Rattus norvegicus with 6 samples.

Results

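The TIMP inhibitors and ADAMTS proteases described here were 10 genes: the tissue inhibitors of metalloproteinases Timp1, Timp2, Timp3 and Timp4, and the secreted proteases Adamts1, Adamts2, Adamts4, Adamts5, Adamts9 and Adamts12. They were chosen by gene name among the non-control probes of the array, with all probes of each gene, and not by their values. Earlier results of these data were known when the names were listed. The 10 names held 15 of the array's 45598 probes, and all 10 genes were among the 19587 genes tested. The RNA came from rat bone marrow stromal cells (rBMSCs), plate-adherent precursors of bone, cartilage and fat cells, taken from the tibia. The cells of 3 arrays had grown on titanium modified with tantalum (Ta) and those of 3 arrays on simple titanium (Ti), all for 7 days. Total RNA was labelled with Cy3 and hybridised to one-colour Agilent expression arrays, 1 per culture. The series' design text calls the cultures independent experiments, and the strain, sex and age of the rats and the number of animals are not given in the sources used here. The question addressed is how transcript levels differ between the surfaces.

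TIMPs are small secreted proteins that bind to the active site of metalloproteinases and block them. ADAMTS proteins are secreted zinc proteases with thrombospondin repeats. Adamts1, Adamts4, Adamts5 and Adamts9 cleave the large proteoglycans aggrecan and versican, Adamts2 removes the amino-terminal propeptide of fibrillar procollagens, and Adamts12 is known from human work to cleave cartilage oligomeric matrix protein. Timp3 is the TIMP that binds to the extracellular matrix and inhibits Adamts4 and Adamts5 as well as matrix metalloproteinases. In marrow and bone these proteins act on the matrix that stromal and bone-forming cells lay down and remodel.

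Levels are log2 processed signals scaled to the 75th percentile of each array, so 1 unit is a doubling, and a level of one probe cannot be set against that of another. Differences are Ta minus Ti. They are given with the moderated SE of limma and with a p adjusted over all genes tested by Benjamini-Hochberg, and a gene passed where that p was under 0.05. Between 62.7% and 65.9% of an array's spots were well above background. Taken over all genes, the mean distance of Ta replicate 1 was 0.436 to its own group and 0.449 to the Ti group (root mean square log2 difference). For Ti replicate 2 the extraction software asked for an evaluation of the array. Row 1 of the slide held all Ta arrays with Ti replicate 1, and row 2 held the other Ti arrays.

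Of the 10 genes, 2 passed the test, and both were lower on Ta: Adamts12 fell by 0.93 and Adamts1 fell by 0.62 on the log2 scale. None of the 4 TIMPs (0) passed in limma, and 2 of them had an unadjusted p under 0.05. Of the 19587 genes tested, 4.14% passed, 2.66% as higher and 1.48% as lower on Ta. Counting by arrays instead, every Ta array lay above every Ti array for 2 of the 10 genes, Timp1 and Adamts4, and below every Ti array for 4, Timp3, Adamts1, Adamts2 and Adamts12. Groups that do not overlap were common in these arrays, with 35.8% of all genes, 19.5% with Ta above and 16.3% with Ta below. An unadjusted p under 0.05 was reached by 6 of the 10 genes and by 30.0% of all genes. The median difference was -0.05 over the 10 genes and 0.03 over all genes tested. Both calls were lost in limma when Ta replicate 2 or 3 or Ti replicate 1 or 3 was left out, settings in which no gene of the array passed. They were also lost with slide row as a block (adjusted p = 0.191 for both), which is partly confounded with surface, with the replicate number as a block (0.0741 for Adamts12 and 0.078 for Adamts1) and with no filter on dim probes (0.111 for both).

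**Figure D1:**
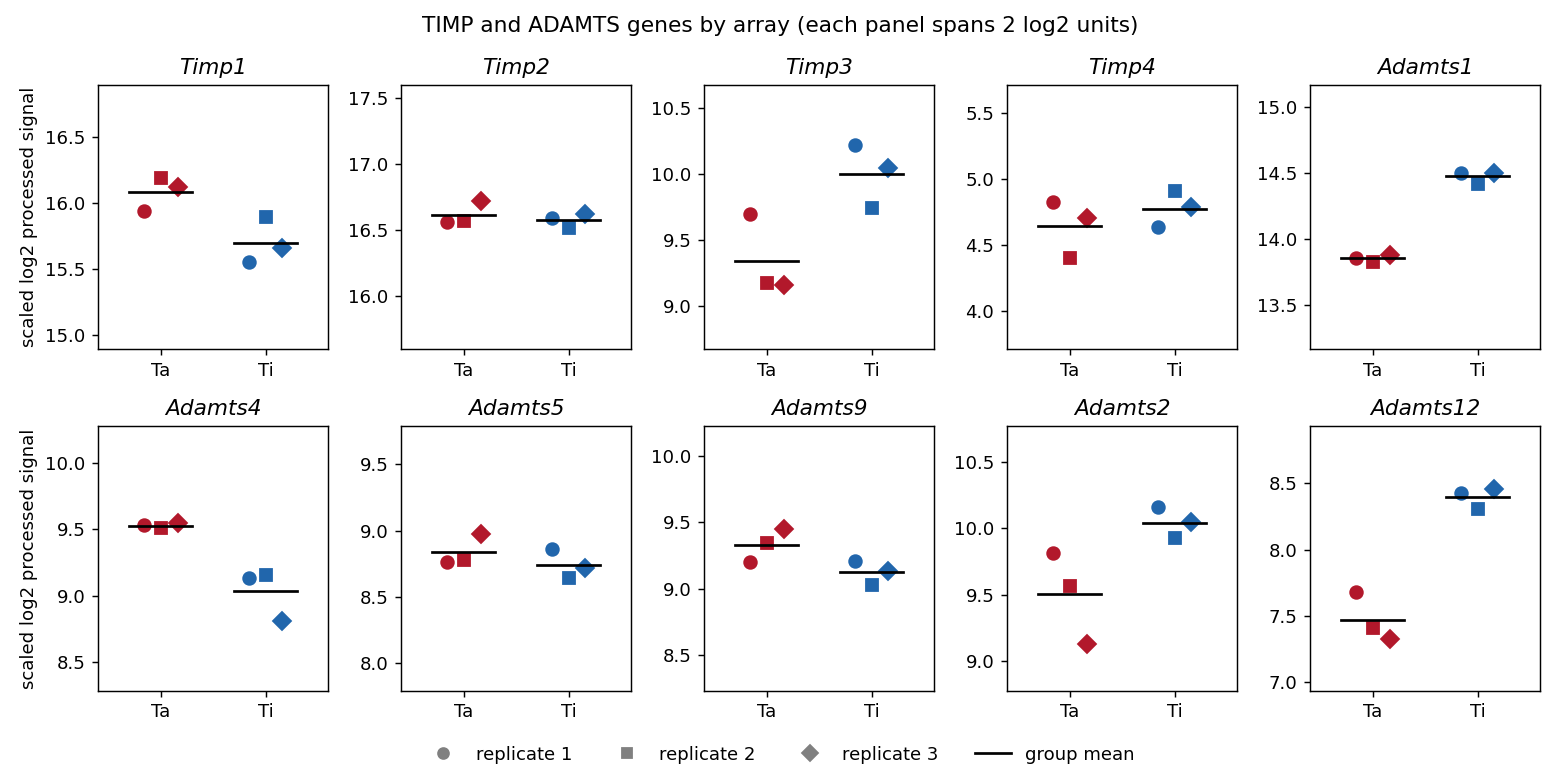
Scaled log2 processed signal (y axis, each panel spanning 2 log2 units) of the 10 genes on the 3 Ta arrays (red, left) and the 3 Ti arrays (blue, right), with 1 point per array, the shape giving the replicate number and the line the group mean. Adamts12 (7.32 to 7.68 on Ta, 8.31 to 8.46 on Ti) and Adamts1 (13.83 to 13.88 on Ta, 14.42 to 14.50 on Ti) show separated groups, while Timp2, Timp4, Adamts5 and Adamts9 overlap.

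The stretches of DNA just before the start of 4 genes are shown because their values carry the description that follows: Adamts1 and Adamts12, which passed the test, and Adamts4 and Timp3, which had the next smallest adjusted p and differed in opposite directions. They are the 250 bases before the annotated start, read 5′ to 3′ along the gene, from RefSeq's GRCr8 assembly, which is not the build of the array. Capitals mark matches to any of 8 motifs searched on both strands.
Adamts1 promoter, chr11:38427385-38427634 (- strand): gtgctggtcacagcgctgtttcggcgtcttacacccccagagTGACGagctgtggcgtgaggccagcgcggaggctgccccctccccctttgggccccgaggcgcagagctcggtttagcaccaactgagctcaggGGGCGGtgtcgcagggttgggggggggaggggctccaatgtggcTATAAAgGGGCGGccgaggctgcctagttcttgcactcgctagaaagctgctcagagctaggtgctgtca
Adamts12 promoter, chr2:61759737-61759986 (+ strand): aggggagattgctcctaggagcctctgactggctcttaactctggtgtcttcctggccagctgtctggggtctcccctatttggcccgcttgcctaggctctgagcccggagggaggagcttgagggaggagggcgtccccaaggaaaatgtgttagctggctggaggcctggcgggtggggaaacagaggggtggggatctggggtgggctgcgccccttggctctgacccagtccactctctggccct
Adamts4 promoter, chr13:86202761-86203010 (+ strand): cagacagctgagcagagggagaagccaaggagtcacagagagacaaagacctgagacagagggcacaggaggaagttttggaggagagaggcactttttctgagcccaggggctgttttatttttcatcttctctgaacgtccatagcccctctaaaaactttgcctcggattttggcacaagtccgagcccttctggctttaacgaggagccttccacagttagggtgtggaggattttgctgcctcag
Timp3 promoter, chr7:19459559-19459808 (- strand): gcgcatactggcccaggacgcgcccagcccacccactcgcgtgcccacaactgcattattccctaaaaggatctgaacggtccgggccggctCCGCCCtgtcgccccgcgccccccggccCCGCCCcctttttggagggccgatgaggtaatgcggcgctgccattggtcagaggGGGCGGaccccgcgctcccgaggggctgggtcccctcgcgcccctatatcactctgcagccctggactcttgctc
The table held such a window for 9 of the 10 genes, without Adamts5. The motifs searched were AP-1 (TGANTCA), SP1 (GGGCGG), the TATA box (TATAAA), RUNX (TGTGGT), TEAD (GGAATG), CRE in its short form (TGACG), HIF (ACGTG) and NF-kB (GGG, any 2 bases, TTTCC). In the Adamts1 window TATAAA lay at positions -70 to -65 from the start, with a GGGCGG just after it at -63 to -58, another at -114 to -109 and a TGACG at -208 to -204. TATAAA stood in 12.9% of all 33465 windows of this length and in no other of the 9. The Timp3 window held 3 matches to the SP1 letters, and the Adamts12 and Adamts4 windows held none of the 8 motifs. The SP1 letters were found in 6 of the 9 windows, all but those of Timp4, Adamts4 and Adamts12, and in 30.5% of all windows. TGACG was found in 3 (Timp1, Timp2 and Adamts1) and in 18.2% of all windows, and GGAATG in 2 (Timp1 and Timp4) and in 12.1%. None of the 9 windows (0) held the letters of AP-1, RUNX, HIF or NF-kB, which stood in 6.34%, 14.5%, 16.6% and 1.3% of all windows. G and C made up 65.2% of the Adamts1 window, 63.6% of that of Adamts12, 51.2% of that of Adamts4 and 69.6% of that of Timp3, against a median of 51.2% over all windows. The SP1 letters are themselves all G and C. The 6 windows with them were 61.2% (Timp1) to 75.6% (Adamts2) G and C, and those without 50.8% (Timp4) to 63.6% (Adamts12). The part of the G and C share in these matches was not tested. A match of letters is not a binding site, and the 2 genes that passed shared no motif of the 8.

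None of the 4 inhibitors passed the test, 2 having differences above 0 and 2 below. Timp1, a soluble inhibitor of most matrix metalloproteinases, had levels of 15.94, 16.19 and 16.12 on the Ta arrays and of 15.55, 15.89 and 15.66 on the Ti arrays. Every Ta array was above every Ti array, with Ta replicate 1 just above Ti replicate 2. The means were 16.08 ± 0.13 on Ta and 15.70 ± 0.17 on Ti (SD, n = 3 each). The difference of 0.38 ± 0.12 (SE, limma adjusted p = 0.102), or 1.31-fold, did not pass, and with each array left out in turn it lay between 0.31 and 0.48. Timp1 has 10 spots on each array, of which 9 or 10 could be used, and their SD within an array was between 0.0216 and 0.0568. The spread between cultures was larger than the spread between spots.

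Timp2, which also takes part in the activation of Mmp2 by Mmp14 at the cell surface, had levels of 16.56, 16.57 and 16.72 on Ta and of 16.59, 16.51 and 16.62 on Ti. The groups overlapped, and the difference was 0.04 ± 0.08 (SE, limma adjusted p = 0.79). Its 95% interval, -0.17 to 0.24, leaves room for changes of up to that size in either direction. Of its 10 spots an array, 8 to 10 could be used, and they had an SD between 0.0719 and 0.0876 within an array. Here the spread between spots was about that between cultures (SD 0.0896 on Ta and 0.0555 on Ti). No spot was saturated on any array (0).

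Timp3 had levels of 9.70, 9.17 and 9.16 on Ta and of 10.22, 9.74 and 10.05 on Ti, from its brightest probe. Ta replicates 2 and 3 were well below the Ti arrays, and Ta replicate 1 lay just under Ti replicate 2. The difference of -0.66 ± 0.19 (SE, limma adjusted p = 0.0891) did not pass. It passed without Ta replicate 1 (-0.83, adjusted p = 0.0286) and after normexp background correction (-0.60, adjusted p = 0.0473). With array weights it also passed (-0.86, adjusted p = 0.00141), as did 10181 of the 19587 genes tested. In 17 alternatives it stayed short of the threshold. Among these were the probes averaged (-0.49, limma adjusted p = 0.157) and slide row as a block (-0.87, 0.214). The other Timp3 probes had differences of -0.37 and -0.45 (limma over all probes, adjusted p = 0.204 and 0.266), with groups that overlapped. The last of these had levels of 4.48, 3.94 and 3.65 on Ta, well above background on 2 of those arrays, and of 4.53, 4.18 and 4.70 on Ti. All 3 probes had a difference below 0, and the groups were separated on the brightest alone.

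Timp4, an inhibitor best known from heart and fat tissue, had levels of 4.83, 4.41 and 4.71 on Ta and of 4.64, 4.91 and 4.79 on Ti. The groups overlapped, and the difference of -0.13 ± 0.14 (SE, limma adjusted p = 0.56) turned its sign under other settings, with 0.08 after normexp background correction. Its probe was well above background on all 6 arrays.

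**Figure D2:**
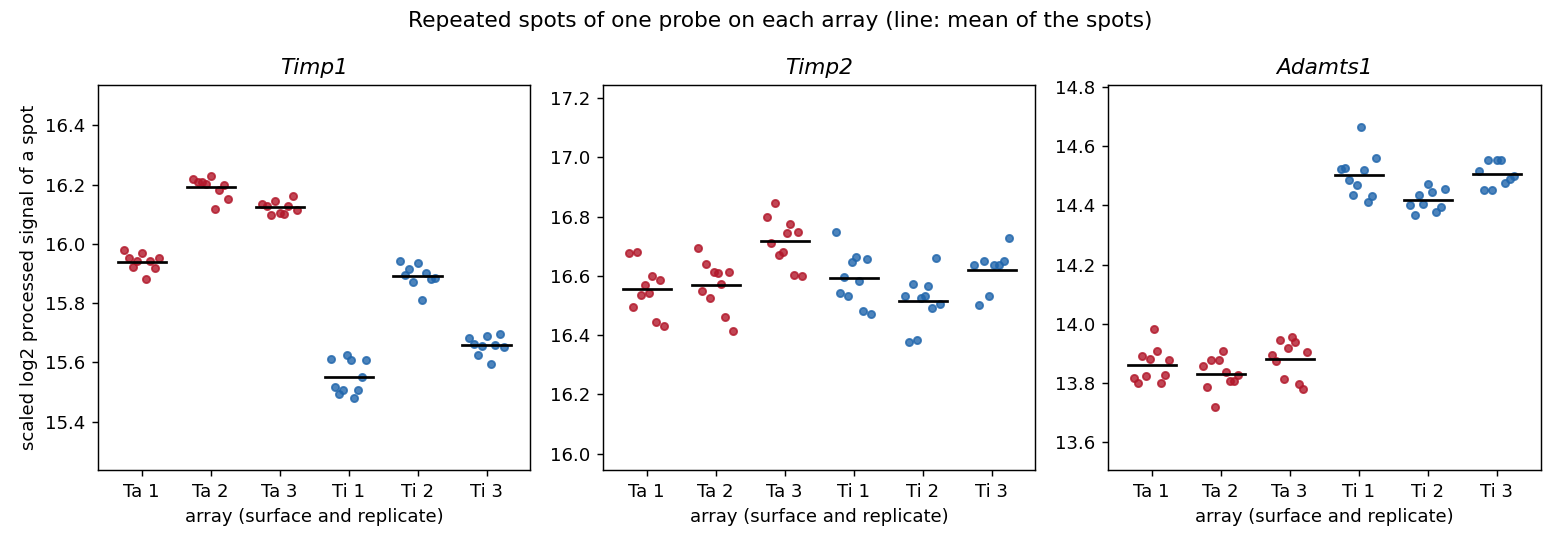
Scaled log2 processed signal of each usable spot (points) of the Timp1, Timp2 and Adamts1 probes that are printed 10 times on every array, by array from Ta 1 to Ti 3 on the x axis, with lines at the spot means. The Adamts1 spots of the Ta arrays lie between 13.72 and 13.98 and those of the Ti arrays between 14.37 and 14.66, while the Timp2 spots of the 2 groups overlap.

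Of the 4 proteoglycan-cleaving proteases, Adamts1 fell on Ta, and Adamts4, Adamts5 and Adamts9 did not pass the test. Adamts1, which is expressed in many tissues and was first known as a gene induced by inflammation in mouse, had levels of 13.86, 13.83 and 13.88 on Ta and of 14.50, 14.42 and 14.50 on Ti. The 3 Ta arrays lay close together and all below the Ti arrays. The difference was -0.62 ± 0.07 (SE, 95% interval -0.79 to -0.44, limma adjusted p = 0.0397), which is a 1.53-fold higher signal on Ti. Ta replicate 1 sat between the other Ta arrays here. The probe lies at chr11:25434383-25434442 on the minus strand of rn4, the build named in the file headers, and no exon annotation of that build was used here.

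That Adamts1 probe is printed 10 times on each array, of which 9 or 10 spots could be used. Their SD within an array was between 0.0364 and 0.0742, and every usable spot of a Ta array was dimmer than every usable spot of a Ti array, as the plot of repeated spots shows. A second Adamts1 probe, with 1 spot per array, had levels of 8.49, 8.45 and 8.74 on Ta and of 9.48, 8.72 and 9.16 on Ti. Its groups overlapped through Ta replicate 3 and Ti replicate 2, and its difference of -0.56 ± 0.20 (SE, limma over all probes, adjusted p = 0.132) did not pass. Of all 25756 probes tested on their own, 4.31% passed. With the probes of each gene averaged, Adamts1 was at -0.59 with an adjusted p of 0.0576, so its call rests on the repeated probe.

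Adamts4, known as aggrecanase-1, differed in the other direction. Its levels were 9.53, 9.51 and 9.55 on Ta and 9.13, 9.15 and 8.81 on Ti. The Ta arrays were close together and all above the Ti arrays, of which replicate 3 was lowest. The difference of 0.50 ± 0.11 (SE, 95% interval 0.22 to 0.77, limma adjusted p = 0.0621) did not pass. It passed after normexp background correction (0.44, adjusted p = 0.0288), with probes well above background on all 6 arrays only (adjusted p = 0.0496), and with trend and robust settings of eBayes (adjusted p = 0.0328). Array weights, under which 10181 genes passed, put it at 0.61 (adjusted p = 0.00209). With slide row as a block it was 0.39 ± 0.16 (adjusted p = 0.265), and it was above 0 in every alternative tried.

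Adamts5, known as aggrecanase-2 and a neighbour of Adamts1 on rat chromosome 11, had levels of 8.76, 8.78 and 8.97 on Ta and of 8.86, 8.64 and 8.72 on Ti. The groups overlapped, with a difference of 0.10 ± 0.10 (SE, limma adjusted p = 0.547). Its 95% interval was -0.15 to 0.35. Adamts9, which cleaves versican and aggrecan, had levels of 9.20, 9.34 and 9.45 on Ta and of 9.21, 9.03 and 9.13 on Ti. Only Ta replicate 1 lay among the Ti arrays, and the difference of 0.21 ± 0.10 (SE, limma adjusted p = 0.216) did not pass. A second Adamts9 probe stayed short of well above background on every array and was not tested.

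Adamts2, the procollagen amino-propeptidase whose loss causes fragile skin in humans and cattle, had levels of 9.82, 9.57 and 9.12 on Ta and of 10.16, 9.93 and 10.05 on Ti. All Ta arrays were below the Ti arrays, spread over a wider range than them. The difference of -0.54 ± 0.18 (SE, limma adjusted p = 0.114) did not pass. It was -0.70 without Ta replicate 1 (adjusted p = 0.0449) and -0.35 without Ta replicate 3 (adjusted p = 0.226), so its size depended on which Ta arrays entered. The second Adamts2 probe had levels of 9.76, 9.04 and 8.62 on Ta and of 9.61, 9.76 and 9.59 on Ti, so that Ta replicate 1 was level with the Ti arrays. Its difference was -0.52 ± 0.28 (SE, limma over all probes, adjusted p = 0.267).

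Adamts12 showed the largest difference of the 10 genes. Its levels were 7.68, 7.40 and 7.32 on Ta and 8.43, 8.31 and 8.46 on Ti. All Ta arrays lay below all Ti arrays, by a gap wider than the range within either group. The means were 7.47 ± 0.19 on Ta and 8.40 ± 0.08 on Ti (SD, n = 3 each). The difference was -0.93 ± 0.12 (SE, 95% interval -1.21 to -0.65, limma adjusted p = 0.0397), a 1.91-fold higher signal on Ti. With each array left out in turn it stayed between -1.03 and -0.86. The gene has 1 probe, with 1 spot per array, at chr2:60720681-60720740 on the plus strand of rn4, so no second probe bears on it. Ta replicate 1 was the highest of the Ta arrays, as it was for Timp3 and Adamts2.

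**Figure D3:**
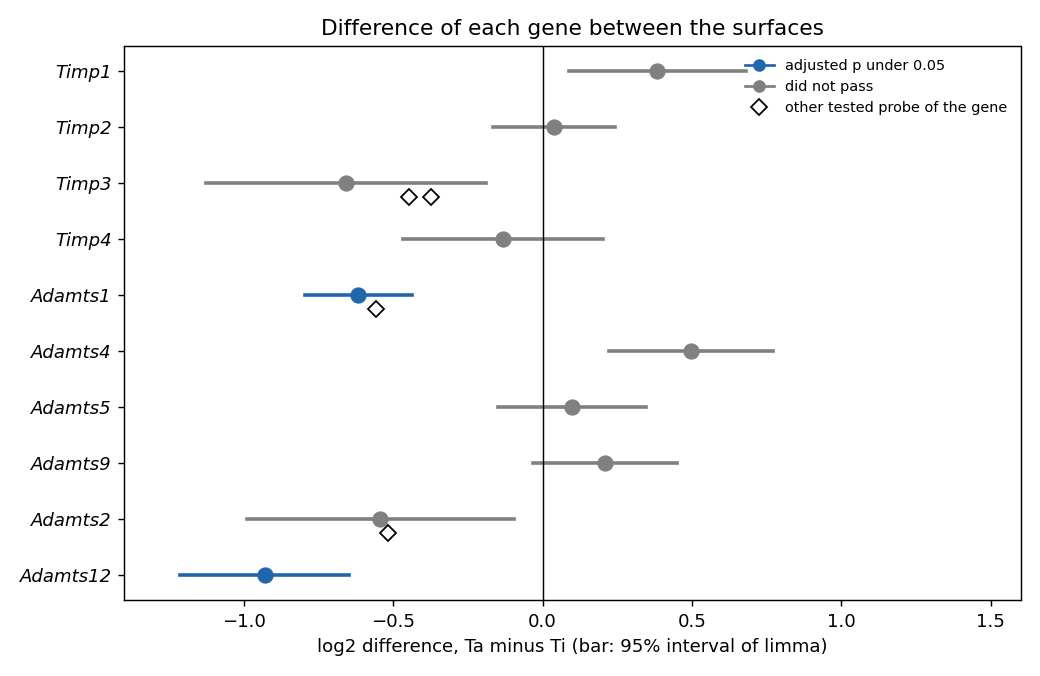
Log2 difference, Ta minus Ti, of each of the 10 genes (points; bars are 95% intervals of limma), in blue where the adjusted p was under 0.05 and in grey otherwise, with open diamonds for the other tested probes of a gene. Adamts12 at -0.93 and Adamts1 at -0.62 are the 2 in blue, and the intervals of Timp2, Timp4, Adamts5 and Adamts9 include 0.

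**Figure D4:**
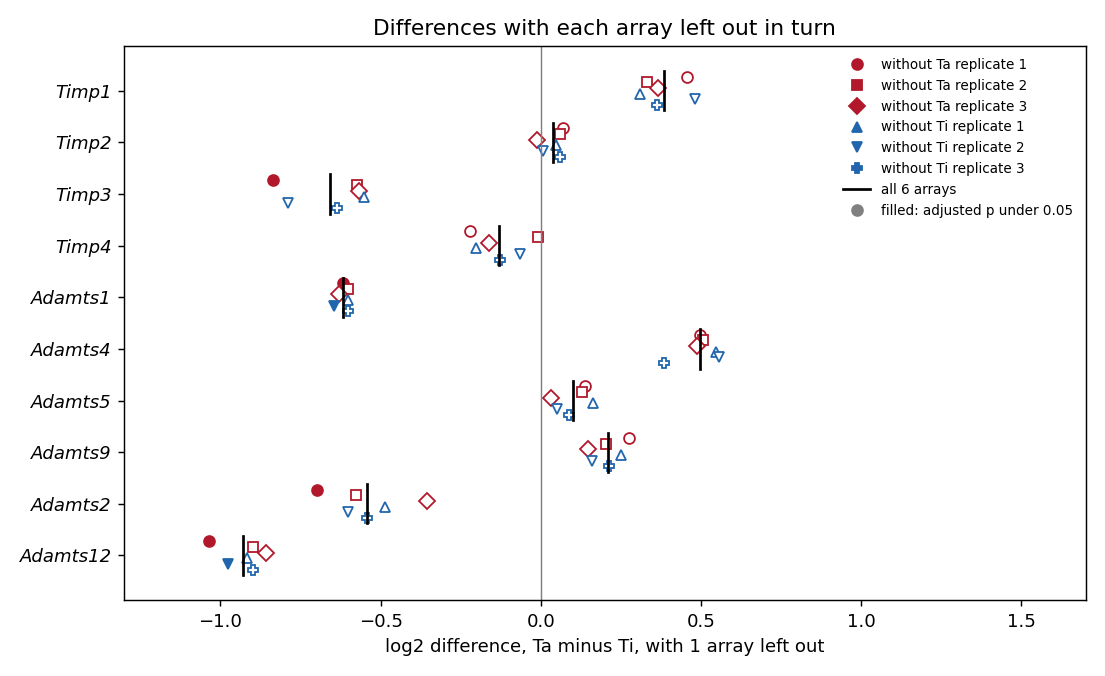
Log2 difference, Ta minus Ti, of each gene with 1 array left out (symbols, 1 per array left out, filled where the adjusted p was under 0.05) beside the value over all 6 arrays (black line). Without Ta replicate 1, 4 genes pass (Timp3, Adamts1, Adamts2 and Adamts12), without Ti replicate 2 Adamts1 and Adamts12 pass, and in the 4 other cases none does, while the Adamts1 values stay between -0.65 and -0.60.

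The pattern of Adamts12 over the 6 arrays was compared with that of every gene tested, each centred on its own mean, by the root mean square difference. Among genes with a RefSeq symbol, provisional locus names left out, the 5 most similar were as follows. They were Mid2 at 0.0416, Rdm1 at 0.0442, Sema3e at 0.0537, Fam78b at 0.0643 and Ankrd29 at 0.0727 log2 units. Their own differences were -0.99, -0.92, -0.84, -0.81 and -0.84. Mid2 is a ubiquitin ligase of the tripartite motif family and Sema3e a secreted semaphorin that guides axons and vessels. Ranked among all genes tested, the nearest of the other 9 genes described here were Timp3 at rank 222 of 19587, Adamts1 at rank 254 and Adamts2 at rank 508. With 6 arrays in 2 groups, a gene with a similar difference between the groups scores as similar, and the measure is a description.

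Genes around these proteins were taken as 5 lists of 69 genes, of which 58 could be tested. Of these 58, 5 passed, 1 as higher and 4 as lower on Ta, against 4.14% of all genes tested. An unadjusted p under 0.05 was reached by 26 of the 58 and by 30.0% of all genes. The median difference of the 58 was -0.10. The 5 that passed include Mmp7, which was tested only through the Ti arrays. Among the other ADAMTS genes 9 of 13 could be tested and none passed (0 in limma, 3 at an unadjusted p under 0.05), with a median of 0.24 and values from -0.42 for Adamts14, a second procollagen propeptidase, to 0.89 for Adamts3, another of that kind, which was well above background on 1 of the 3 Ti arrays. Adamts15 and Adamts7 had differences of 0.65 and 0.61 (limma adjusted p = 0.0984 and 0.0813). For both, every Ta array was above every Ti array, as for 19.5% of all genes, and neither passed. Among the ADAMTS-like proteins, which lack the protease domain, 5 of 7 could be tested and none passed (0, with 2 at an unadjusted p under 0.05), with a median of -0.42.

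The list of matrix metalloproteinases and ADAM proteases had 22 tested genes of 25, with a median of -0.03. It includes Adam8, Adam9 and Adam19, and whether TIMPs inhibit each member was not tested. Mmp7, matrilysin, passed: its levels were 5.84, 3.51 and 3.36 on Ta and 8.12, 7.57 and 8.60 on Ti, a difference of -3.86 ± 0.69 (SE, limma adjusted p = 0.0452). It was well above background on 1 of the 3 Ta arrays and on all 3 Ti arrays, so it was tested only because it was bright on Ti, and no exact size can be read from signals that are not above background. After normexp background correction the difference was -1.76 (adjusted p = 0.0129) and with array weights -4.83 (adjusted p = 0.000823), and with probes well above background on all 6 arrays only, the gene was not tested. The stromal collagenase Mmp13 and the stromelysin Mmp3 had high levels on Ta replicates 2 and 3 in particular. Mmp3 had levels of 14.82, 16.19 and 16.28 on Ta and of 13.99, 14.11 and 13.96 on Ti, a difference of 1.74 ± 0.39 (SE, limma adjusted p = 0.0586). Mmp13 had a difference of 1.40 (adjusted p = 0.0998). Mmp3 also passed after normexp background correction (adjusted p = 0.0262), with detection on all 6 arrays (0.0448) and with trend and robust settings (0.0438). Under array weights, where 10181 genes passed, Mmp3 and Mmp13 both did (adjusted p = 0.000914 and 0.00158). Without Ta replicate 1, where 3228 genes passed, both did, at 2.21 and 1.95 (adjusted p = 0.00277 and 0.00283). Mmp3 stayed short of the threshold in 15 alternatives and Mmp13 in 18. For Mmp3 these included the probes averaged (limma adjusted p = 0.0678) and slide row as a block (0.225). Mmp2 and its activator Mmp14, which act together with Timp2, had differences of 0.10 and -0.09 (limma adjusted p = 0.548 and 0.528).

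Of the 8 genes of activation and clearance, all tested, 1 passed (4.14% of all genes did), namely Pcsk6. It encodes a proprotein convertase, and its levels were 8.71, 7.89 and 7.42 on Ta and 10.03, 9.45 and 9.91 on Ti, a difference of -1.79 ± 0.34 (SE, limma adjusted p = 0.0481). Furin, the convertase best known for removing ADAMTS prodomains, was at 0.46 (adjusted p = 0.0816). Reck, a membrane-bound inhibitor of metalloproteinases, and Lrp1, the receptor that takes up TIMP3 and several ADAMTS proteases, were at -0.14 and 0.06 (limma adjusted p = 0.442 and 0.721), with groups that overlapped.

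The list of ADAMTS substrates also held Has2, a hyaluronan synthase and not itself a substrate, which did not pass. Of its 16 genes 14 could be tested and 3 passed, against 4.14% of all genes, with a median of -0.15. Thbs1, thrombospondin 1, fell to 11.77, 11.69 and 11.65 on Ta, against 12.40, 12.30 and 12.25 on Ti, a difference of -0.61 ± 0.08 (SE, limma adjusted p = 0.0397). A second Thbs1 probe had a difference of -0.35 with overlapping groups (limma over all probes, adjusted p = 0.305), and with the probes averaged Thbs1 did not pass (-0.48, adjusted p = 0.0638). Col5a1, a chain of type V collagen, had a difference of -0.54 ± 0.10 (SE, adjusted p = 0.0452), and its second probe was at -0.51 (limma over all probes, adjusted p = 0.0675). With the probes averaged Col5a1 did not pass (-0.53, adjusted p = 0.0526). Bcan, brevican, which is best known from brain, was higher by 0.65 ± 0.10 (SE, adjusted p = 0.0408) at a low level of 4.74 to 5.03 on Ta and 4.22 to 4.26 on Ti, and after normexp background correction it was at 0.25 and did not pass (adjusted p = 0.0604).

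Of the substrates named whatever their result, Vcan, Col1a1, Col3a1 and Comp did not pass. Vcan, versican, had levels of 13.87, 13.86 and 13.68 on Ta and of 13.06, 13.51 and 13.12 on Ti, with all Ta arrays above the Ti arrays (0.57 ± 0.14, SE, limma adjusted p = 0.0683). Acan, aggrecan, was well above background on 2 of 6 arrays, both Ti, and was not tested. Col1a1 was at -0.07 (adjusted p = 0.742), and its second probe at 0.13. Col3a1 had levels of 15.63, 15.07 and 15.10 on Ta and of 15.95, 15.89 and 15.99 on Ti (-0.68 ± 0.16, SE, limma adjusted p = 0.0662). Comp, the cartilage oligomeric matrix protein, had levels of 6.47, 5.18 and 5.39 on Ta and of 7.56, 6.74 and 7.15 on Ti (-1.47 ± 0.38, SE, limma adjusted p = 0.0722). After normexp background correction, where 2602 genes passed, Comp was at -0.77 and passed (adjusted p = 0.0369). So did Vcan at 0.55 (0.0315) and Col3a1 at -0.66 (0.0318). Comp, Vcan and Col3a1 also passed with trend and robust settings, where 2104 genes passed (adjusted p = 0.0478, 0.0326 and 0.0331). Under array weights, where 10181 genes passed, they did too (adjusted p = 0.00119, 0.00123 and 0.00108). Without Ta replicate 1, where 3228 genes passed, Col3a1 and Comp did, at -0.86 and -1.87 (adjusted p = 0.00864 and 0.0146). Without Ti replicate 2, where 1559 genes passed, Vcan did, at 0.71 (adjusted p = 0.0356). In 16 alternatives each of Comp, Vcan and Col3a1 stayed short of the threshold. With slide row as a block, for example, their limma adjusted p was 0.205, 0.199 and 0.243. For Col3a1 and Comp all Ta arrays were below the Ti arrays, with Ta replicate 1 nearest to them.

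**Figure D5:**
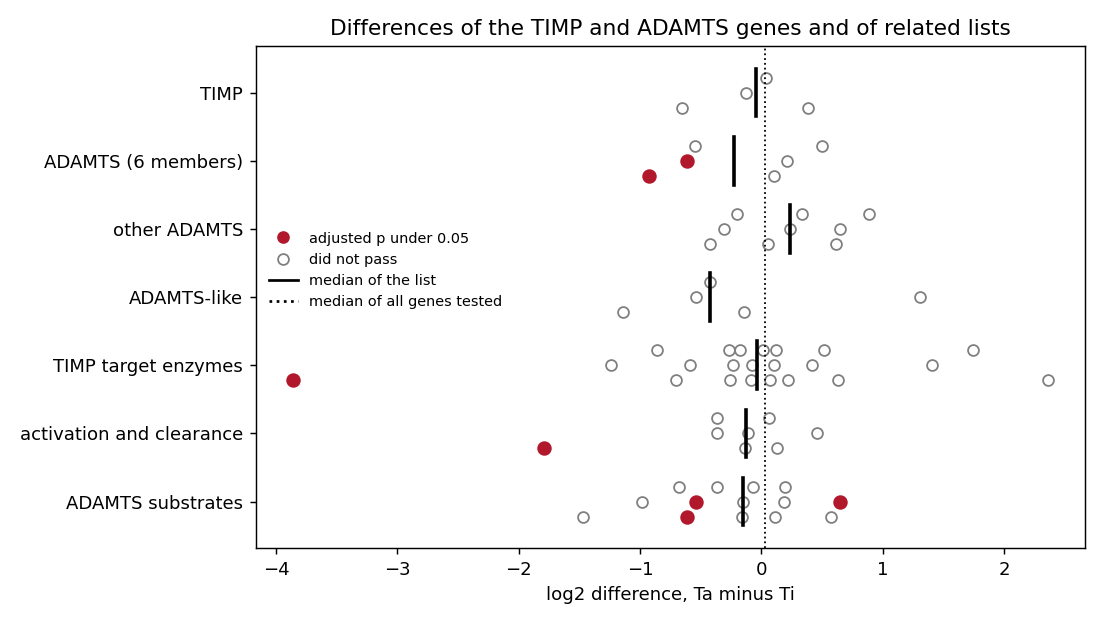
Log2 difference, Ta minus Ti, of each tested gene (points, filled red where the adjusted p was under 0.05) of the TIMP and the 6 ADAMTS genes described and of 5 lists of related genes, with the median of each list (black line) and of all genes tested (dotted, 0.03). Filled points are Adamts1 and Adamts12, Mmp7 at -3.86 (not above background on 2 Ta arrays), Pcsk6 at -1.79, and Thbs1, Col5a1 and Bcan among the substrates, while the 9 other ADAMTS and 5 ADAMTS-like genes hold none.

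The cultures were checked against cell type markers, given beside these results because bulk RNA was measured: fewer cells of a type and less RNA per cell cannot be told apart. Of 13 marrow stromal markers 12 were tested, all well above background on every array, and 2 passed, both higher on Ta (Cxcl12 and Thy1). Of all genes tested 4.14% passed. Differences lay above 0 for 6 of the 12 and below 0 for 6, and 6 had an unadjusted p under 0.05 (30.0% of all genes). Every Ta array was above every Ti array for 3 (Cxcl12, Thy1 and Vcam1) and below for 3 (Eng, Col3a1 and Itgb1). The summed log2 level was 18.08 to 18.21 on Ta and 18.15 to 18.18 on Ti. Of 11 macrophage markers 10 were well above background on every array, none passed (0 in limma, 7 at an unadjusted p under 0.05), and 10 were below 0. For 5 of the 11 every Ta array lay below every Ti array, and for 1, Cd14, above. C1qa, C1qb and C1qc had the largest differences, -2.79, -2.83 and -3.08 (limma adjusted p = 0.0787, 0.0695 and 0.0699). The groups overlapped for 5 of the 11. Among these, Adgre1, Cd68, Itgam and Cd163 were at -0.15, -0.28, -0.22 and -0.49 (limma adjusted p = 0.746, 0.384, 0.599 and 0.681). The summed level, in which bright probes weigh most, was 14.63 to 15.30 on Ta and 15.31 to 15.55 on Ti. Of 6 mast cell markers 5 were tested, 2 were well above background on every array, and both of these fell (Kit and Mcpt8). Cma1 and Cpa3 also had adjusted p-values under 0.05 and lower values on Ta, but they were well above background on 0 and 1 of the 3 Ta arrays and were tested only through the Ti arrays. Fcer1a, well above background on 3 Ta and 2 Ti arrays, was at -0.25 with overlapping groups (limma adjusted p = 0.685). The 5 tested markers had a summed level of 7.91 to 8.42 on Ta and 9.95 to 10.84 on Ti. Mcpt8, at 7.39 to 8.16 on Ta and 9.50 to 10.54 on Ti, weighed most in that sum. Of 6 neutrophil markers 3 were tested, and the 2 that were well above background on every array rose (Camp and S100a8), with a summed level of 8.03 to 9.27 on Ta and 6.36 to 7.08 on Ti. Of 6 endothelial markers 5 were tested and none passed (0, with 1 at an unadjusted p under 0.05). The markers not tested were Lepr, S100a9, Ngp, Elane, Tpsb2 and Emcn. The part of these cell types in the differences of Adamts1, Adamts12, Mmp7 and the other genes was not tested.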

How the data were processed

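Per the file headers, the authors' files hold spot intensity on a linear scale from Agilent Feature Extraction, background-subtracted and detrended within each array, with no scaling between arrays. Feature Extraction 12.0 and limma are the tools listed in the submitters' processing notes. For Ta replicate 2 and Ti replicate 3 alone, 100% of values were rounded to 3 digits. On each of these arrays 93 gene names differed from those of Ta replicate 1, whose names were used. With all arrays rounded to 3 digits, 806 genes and 2 of the 10 passed. The deposited value table, also an intensity, equalled the processed signal in 100% of values.

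From these, the log2 processed signal minus each array's 75th percentile over 58717 non-control spots was computed, with the mean percentile added back. Outlier spots (0.577% to 0.841% of an array) were set missing and spots of a probe averaged. Probes well above background in more than 0.5 of their spots on at least 3 of 6 arrays were kept, and the brightest probe stood for a gene. The 10 genes held 42 spots, 15 probes and 14 tested probes. RefSeq (GRCr8) named 31564 of 45598 probes, and all 15 probes kept their symbol. The arrays' number limits the precision.

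Groups were compared with the two-sided moderated test of limma 3.58.1, run in R 4.3.3. The test was also run on simulated data with independent noise for each gene and array. That run does not cover shifts shared by the genes of an array. P-values were adjusted by Benjamini-Hochberg over 19587 genes. The p-values measure the spread between 3 cultures a group. Beside the 10 genes, the text names up to 3 passing genes per related list, 11 others whatever their result, and the 5 genes with a symbol most like Adamts12. Adamts15, Adamts7, Adamts14, Adamts3, Furin and the marker genes were named after their values were seen. The members and lists were chosen with earlier results of these data known. The labels do not say whether replicate numbers pair the cultures. Correlations of same-numbered deviations were 0.06, 0.13 and -0.18, which with 3 cultures a group cannot decide it. Slide row is confounded in part with surface. Alternatives covered scaling, background correction, filters, blocks, array weights, probe rules, rounding and leaving out arrays.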

Additional observations from a re-analysis of the deposited data

How the results depend on the processing

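With all 6 arrays, Adamts12 and Adamts1 kept their direction in every alternative, and 811 genes of the array, 2 of the 10 genes and 5 related genes passed. With each array left out in turn, 0 to 3228 genes of the array passed, 0 to 4 of the 10 and 0 to 17 of the related genes. Adamts1 then lay between -0.65 and -0.60 (adjusted p 0.0144 to 0.162) and Adamts12 between -1.03 and -0.86 (0.00807 to 0.162). Without Ta replicate 1 the counts were 3228, 4 and 17, and without Ti replicate 2 they were 1559, 2 and 10. Without Ta replicate 2 or 3 or Ti replicate 1 or 3 they were 0 in limma, with 3815, 3899, 4470 and 3813 genes at an unadjusted p under 0.05.

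Normexp gave 2602 genes, 4 of the 10 (with Adamts4 and Timp3) and 15 related genes. With no filter on dim probes none passed (0, 0 and 0, against 5810, 6 and 26 unadjusted), with Adamts1 at -0.62 and Adamts12 at -0.93 (adjusted p = 0.111 for both), where more genes were tested. With the replicate number as a block, 8 genes, 0 of the 10 (6 unadjusted) and 0 related genes (26 unadjusted) passed, with Adamts1 at -0.62 (adjusted p = 0.078) and Adamts12 at -0.93 (0.0741). With slide row as a block, which compares the Ta arrays with Ti replicate 1 in their row, 0, 0 and 0 passed (3835, 4 and 17 unadjusted), with Adamts1 at -0.64 and Adamts12 at -0.96 (adjusted p = 0.191 for both). Trend and robust settings gave 2104 genes and 15 related genes. Array weights, of which Ta replicate 2 took 7.34 and the others 0.32 to 2.76, gave 10181 genes, 8 of the 10 and 38 related genes. Averaging the probes of a gene left 1 of the 10, with Adamts1 at -0.59 (adjusted p = 0.0576), and also ended the calls of Thbs1 and Col5a1. Each probe on its own gave 1110 calls, and well above background on all 6 arrays 1178 genes and 3 of the 10.

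Values near 0 changed sign. Timp4 was 0.076 with normexp and 0.011 with the slide row block, under which Adamts5 was -0.023 and Lrp1 -0.069. With array weights Timp2 was -0.026 and Lrp1 -0.0084. With arrays left out in turn, Timp2 lay between -0.013 and 0.068, Lrp1 between -0.029 and 0.129, and Col1a1 between -0.154 and 0.0095. Col1a1 was 0.031 with probes averaged. The deposited value table gave no separate alternative. For these changes the cause was not tested.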
